A study of Mus musculus with 3 samples.

Results

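The elastic fibre genes were read in cardiac myofibroblasts held in 3 states of attachment. They are 10 genes of 15393 measured: elastin (Eln), the fibrillins Fbn1 and Fbn2, the fibulins Fbln1, Fbln2, Fbln5, Fbln7, Efemp1 and Efemp2, and the microfibril protein gene Mfap5. Members were chosen by name, as every probe whose RefSeq transcript belongs to these genes, which gave 14 probes. Fbn2, Fbln1, Fbln5 and Fbln7 had 2 probes each and the other members had 1. The brightest probe stands for its gene, and the second probe is given beside it.

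Elastic fibres give tissue its recoil. Elastin is secreted as a soluble monomer, tropoelastin, which is laid onto a scaffold of fibrillin microfibrils and crosslinked by lysyl oxidases into an insoluble core. Fibulins are secreted proteins with calcium-binding EGF-like repeats. Fibulin-5 (Fbln5) and fibulin-4 (Efemp2) bind tropoelastin and are needed for fibre assembly, and fibrillin microfibrils also hold latent TGF-beta complexes.

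The cells came from hearts of male C57BL/6J mice, taken 3 days after the left anterior descending artery was tied off for good, digested with collagenase and elastase, kept on plastic overnight and depleted of CD45-positive leukocytes. All 3 groups share this origin: adherent cells were grown on plastic plates, non-adherent cells were moved from plates into suspension, and re-adherent cells were plated again after suspension. The age in the labels is 8 weeks in the sample table, whereas the protocol gives an older age at surgery. Each group was 1 Agilent 1-colour array hybridised with RNA mixed from several hearts, all on 1 slide, and each state lasted a week, so time in culture rises with the order of the states and cannot be told apart from them. The methods describe a large loss of cells during suspension, so the later states come from the cells that remained.

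With 1 array per group there was no test and no spread between cultures or animals. The error given with a log2 difference is the technical error of the scanner software for the 2 spots. Its median in each pair was 0.20 over the genes well above background on both arrays. Of 59305 non-control spots, 53.9% to 59.9% were well above background per array. The 75th percentile by which arrays were scaled lay between 541 and 697 intensity units, so log2 differences are not the plain ratios of the signals quoted. All 10 brightest probes were well above background on all 3 arrays, and none of the 14 probes lay on a flagged spot or in a bright patch of an array. The labelled cell type was checked with 12 fibroblast and myofibroblast markers, all of them well above background on all 3 arrays. Their summed signal, in multiples of the 75th percentile, was 2646 in adherent cells, 1064 in suspension and 2575 after re-adhesion. In suspension 5 of them were over 2-fold lower, where 14.7% of all genes were, and 2 higher, where 17.2% were. Most of the drop in the sum was Acta2 and Tagln, contractile genes of the myofibroblast, and the other 10 markers summed to 1409, 1048 and 1285. The part of this shift in the changes of the elastic fibre genes was not tested. Among the 12 markers, Acta2 (smooth muscle actin) moved by -6.64 in suspension and Col1a1 by -0.70, and Pdgfra, a general fibroblast marker, by -0.55. The fibroblast markers Thy1 and Tcf21 moved by -3.50 and -1.75, whereas the proteoglycan genes Lum and Dcn moved by 3.56 and 1.69. Lum and Dcn thus held up the sum of the other 10, in which Dcn went from 69.2 to 224 and Lum from 5.03 to 59.3. The arrays measure RNA of the whole culture, so fewer cells of a type and less RNA per cell cannot be told apart.

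The bases just upstream of the start site are shown for the members with the largest rises, Fbln7 and Fbln1, and for Fbln2 and Fbln5, which fell, so that the regulatory sequence of members with opposite changes can be read side by side. RefSeq windows of the assembly GRCm38.p6 were taken for 7 of the 10 members by symbol, with windows on a single chromosome left out beforehand. None was taken for Eln, Fbn2 and Mfap5. Each sequence runs 250 bases up to the most upstream start site, 5′ to 3′ on the strand of the gene. Fbln7 lies at chr2:128863682-128863931 on the plus strand, Fbln1 at chr15:85205699-85205948 on the plus strand, Fbln2 at chr6:91212514-91212763 on the plus strand and Fbln5 at chr12:101819120-101819369 on the minus strand. Capitals mark matches to the motifs searched.
Fbln7: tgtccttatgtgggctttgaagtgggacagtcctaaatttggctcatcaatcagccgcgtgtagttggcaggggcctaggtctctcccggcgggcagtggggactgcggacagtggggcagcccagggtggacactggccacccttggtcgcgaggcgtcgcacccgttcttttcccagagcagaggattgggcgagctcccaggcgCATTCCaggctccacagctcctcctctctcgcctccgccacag
Fbln1: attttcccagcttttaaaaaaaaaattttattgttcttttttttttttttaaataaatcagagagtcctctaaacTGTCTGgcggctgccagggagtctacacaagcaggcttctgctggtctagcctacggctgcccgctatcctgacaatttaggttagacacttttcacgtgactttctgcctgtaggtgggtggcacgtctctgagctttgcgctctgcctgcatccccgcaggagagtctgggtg
Fbln2: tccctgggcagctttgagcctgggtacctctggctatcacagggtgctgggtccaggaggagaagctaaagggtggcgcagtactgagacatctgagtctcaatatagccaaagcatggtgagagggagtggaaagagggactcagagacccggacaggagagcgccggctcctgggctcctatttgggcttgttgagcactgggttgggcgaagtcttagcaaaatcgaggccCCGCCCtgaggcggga
Fbln5: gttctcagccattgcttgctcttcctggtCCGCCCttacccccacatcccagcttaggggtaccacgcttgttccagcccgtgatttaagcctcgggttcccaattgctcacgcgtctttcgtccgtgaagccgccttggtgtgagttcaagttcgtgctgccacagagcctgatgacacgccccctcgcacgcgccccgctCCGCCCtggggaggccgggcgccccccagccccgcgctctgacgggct

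Both strands were searched for 6 motifs. The motif of the TEAD factors was written as GGAATG. That of AP-1 was TGANTCA. A SMAD element was CAGACA. The GC box was read as GGGCGG. The TATA box was read as TATAAA, and the CArG box of SRF was searched as well. Matches of different motifs did not overlap. The GC box was found upstream of 5 of the 7 members, Fbn1, Fbln2, Fbln5, Efemp1 and Efemp2, and of neither Fbln7 nor Fbln1, against 32.7% of all 32851 windows. Fbln7 held a TEAD match, which began 43 bases before the start site, as 12.6% of windows do. Fbln1 held a SMAD match and Efemp1 an AP-1 match, found in 17.1% and 6.75% of windows. The TATA box and the CArG box matched 0 of the 7 members, and 12.4% and 1.47% of all windows. A match describes letters only and is no evidence of binding.

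In suspension the elastic fibre genes split. Of the 10, 3 were over 2-fold higher in non-adherent than in adherent cells (Fbln7, Fbln1 and Eln), where 17.2% of all genes were, and 6 were over 2-fold lower (Fbln2, Mfap5, Fbn2, Fbln5, Efemp2 and Fbn1), where 14.7% of all genes were. Only Efemp1 stayed within 2-fold. The median of the members was -1.37 on the log2 scale and that of all genes was -0.07. No fold change of a member given here has a replicate check. Of the markers named above, the study measured Acta2 and Col1a1 by quantitative RT-PCR with replicates in the same states.

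**Figure D1:**
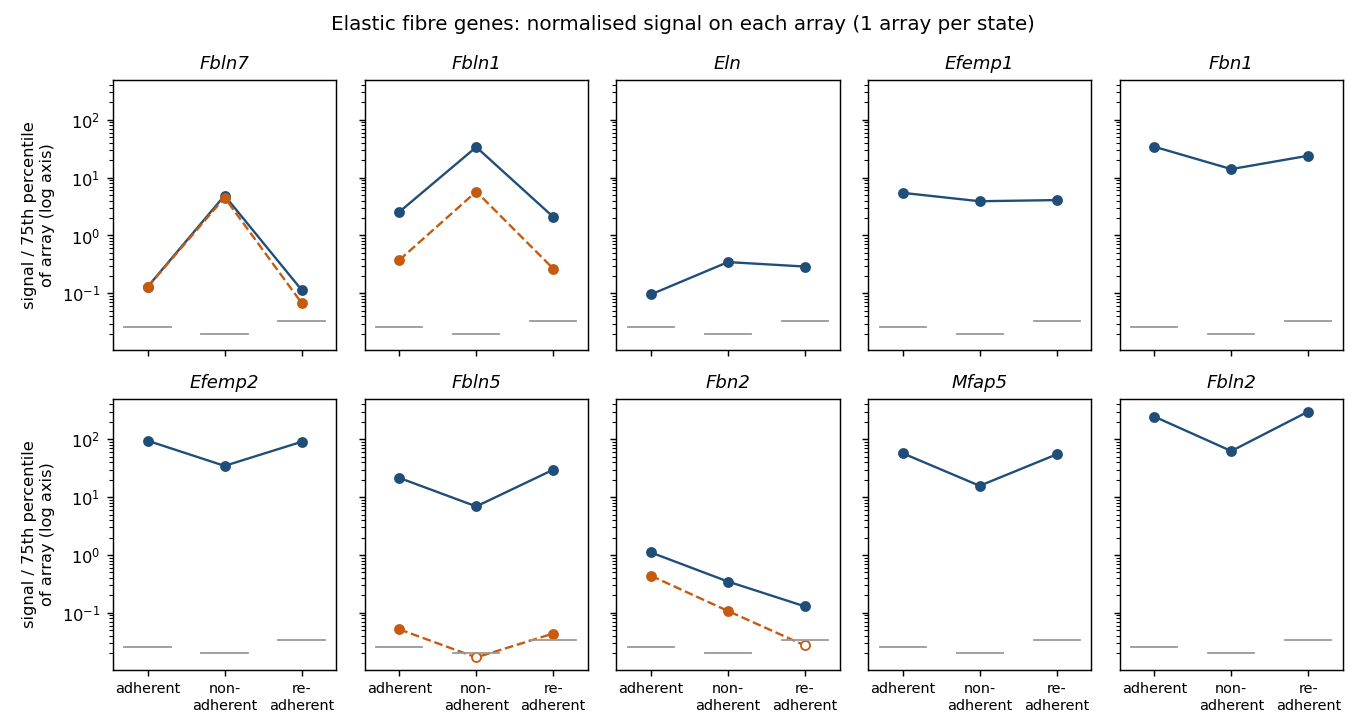
Signal of each elastic fibre probe in the adherent, non-adherent and re-adherent state, as a multiple of the array's 75th percentile on a log axis (blue, brightest probe; orange dashed, second probe; open points, not well above background; grey bars, lowest signal well above background; no error is drawn). Fbln7 and Fbln1 peak on the non-adherent array, 6 members dip there, of which Fbn2 goes on falling, and Eln stays up on the re-adherent array; levels of different probes are not comparable with each other.

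The largest rise was that of Fbln7, which encodes a small cell-adhesive fibulin with a sushi domain. Its signal read 84.1 intensity units before suspension, 3419 during it and 62.2 after re-adhesion. Fbln7 was high in suspension and low in both attached states. It rose by 5.25 ± 0.21 (technical error) on the log2 scale, or 38.0-fold, and fell by 5.42 ± 0.22 on re-adhesion, or 42.7-fold. With the normexp background correction the same differences were 4.47 and -4.53. Only 24 of 15393 genes had a larger log2 difference in suspension. The second probe read 83.4, 3154 and 36.95 units and moved by 5.14 and -6.05. Fbln7 was the only member that rose over 16-fold in suspension and fell over 16-fold afterwards, which 0.318% of all genes did, and 0 members fell and rose over 16-fold, which 0.806% did.

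Fbln1 encodes fibulin-1, a fibulin of basement membranes and elastic fibres that binds fibronectin. Adherent cells read 1661 units, cells in suspension 23532 and re-adherent cells 1132. As with Fbln7, the high value was that of suspension. The rise was 3.73 ± 0.20, or 13.2-fold, and the fall on re-adhesion was -4.01 ± 0.20, or 16.2-fold, which left the first step just short of 16-fold. The second Fbln1 probe was dimmer, with 244, 4001 and 144 units, and moved by 3.94 and -4.43.

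Eln, the core protein of the fibre, followed a different course. Adherent cells read 62.3 units, non-adherent cells 242 and re-adherent cells 157. Eln was low in adherent cells and higher in both later states. It rose by 1.86 ± 0.22 in suspension and changed by -0.26 ± 0.21 on re-adhesion, which left re-adherent cells 1.60 ± 0.22 above adherent cells, or 3.03-fold. The rise in suspension lay between 1.22 and 1.96 over all settings tried, and the re-adherent excess between 1.02 and 1.69, with the normexp background correction lowest in both.

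The members that fell in suspension fell by 2.44- to 3.95-fold. Fbln2, which encodes fibulin-2, a large fibulin that binds fibronectin and fibrillin-1, gave 160912 units in adherent cells, 43618 in suspension and 163542 after re-adhesion. It fell by 1.98 ± 0.20 and rose by 2.27 ± 0.20, or by 1.60 after quantile normalization. The difference between the attached states was 0.29 ± 0.20, and it turned to -0.04 after quantile normalization, -0.14 with spike-in scaling and -0.08 with the normexp correction. In Fbln2 the low array was thus that of suspension, and the direction of the remaining difference was not settled.

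Mfap5 encodes microfibril-associated glycoprotein 2, a small protein that binds fibrillins. Its signals were 37412 units in adherent cells, 10937 in suspension and 29712 after re-adhesion. It fell by 1.87 ± 0.20 in suspension and rose by 1.81 ± 0.20 on re-adhesion. The attached states differed by -0.07, less than the technical error of 0.20, and by 0.02 with median scaling.

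Fbln5 and Efemp2 encode the fibulins that carry tropoelastin to microfibrils. The brightest Fbln5 probe read 14020, 4815 and 16136 units in the same order, a fall by 1.64 ± 0.20 and a rise of 2.11 ± 0.20. Efemp2 read 61597, 24181 and 49003 units, a fall by 1.45 ± 0.20 and a rise of 1.38 ± 0.20. Both genes were lowest in suspension. The rise of Efemp2 was 0.94 after quantile normalization and 0.96 with the normexp correction, within 2-fold. The second Fbln5 probe was close to background, with 33.8, 11.8 and 23.8 units, and not well above it on the non-adherent array, so it gives only bounds of at least 2.58-fold for the fall and at least 2.18-fold for the rise.

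The fibrillins parted after suspension. Fbn1, the main fibrillin of adult microfibrils, read 22312 units in adherent cells, 9782 in suspension and 12964 after re-adhesion. It fell by 1.29 ± 0.20 in suspension and recovered by 0.77 ± 0.20, so that re-adherent cells stayed at -0.52 ± 0.20 from adherent cells. Over the settings tried that difference lay between -0.95 and -0.43.

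Fbn2 is the fibrillin made mostly in development and during tissue repair. Adherent cells read 719 units, cells in suspension 242 and re-adherent cells 69.9. Fbn2 thus stepped down each time and did not come back with attachment. It fell by 1.67 ± 0.21 in suspension and by a further 1.43 ± 0.23 on re-adhesion, ending 8.55-fold below adherent cells (-3.10 ± 0.23). With the normexp correction this last difference was -2.28. Only 29 of 15393 genes had a lower log2 difference between re-adherent and adherent cells. The second Fbn2 probe read 285, 74.99 and 14.8 units, the last not well above background, and put adherent cells at least 12.9-fold above re-adherent cells. The fall on re-adhesion was -1.01 with the normexp correction, the smallest value over the settings.

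Efemp1, which encodes fibulin-3, changed least on the steps into suspension and back. Its signals were 3555, 2724 and 2214 units. It moved by -0.48 ± 0.20 in suspension and by 0.06 ± 0.20 on re-adhesion. The latter value turned negative under 5 of the 12 other settings, down to -0.30. Of the settings able to change it, only median scaling kept it positive, at 0.08. Re-adherent cells ended at -0.42 ± 0.20 from adherent cells, where several other members lay closer to 0.

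**Figure D2:**
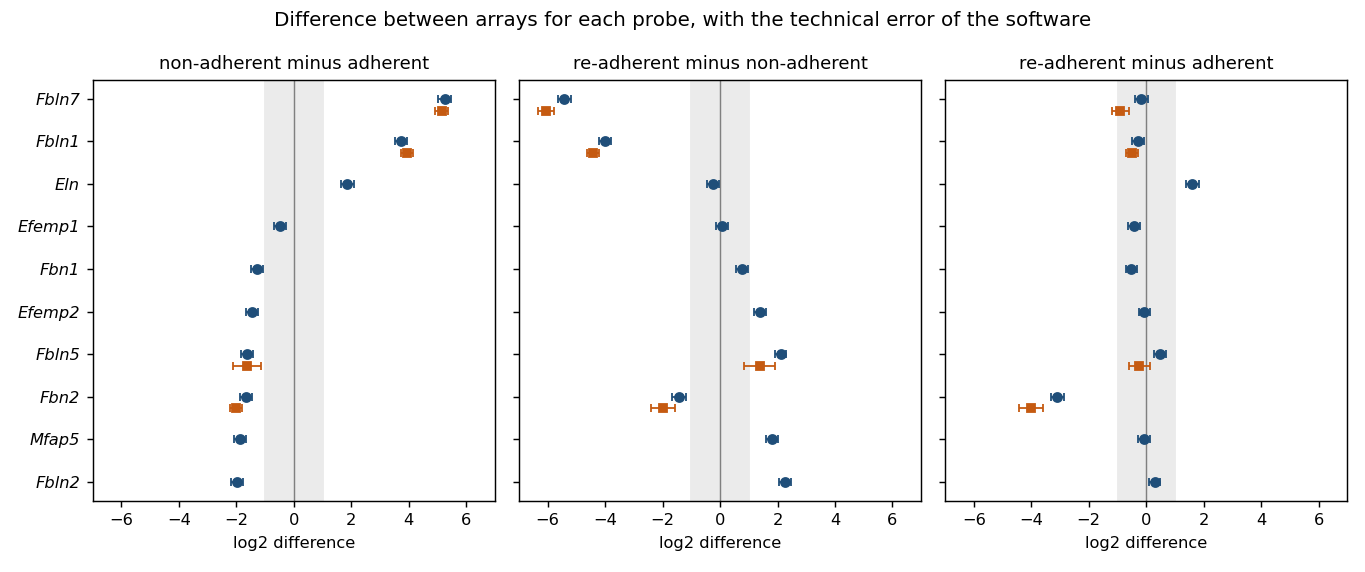
Log2 differences between arrays for every probe of the elastic fibre genes, in order of the change into suspension (blue circles, brightest probe; orange squares, second probe; bars, technical error of the software; grey band, within 2-fold; second probes not well above background are drawn at their measured value). The second probes of Fbln7, Fbln1, Fbln5 and Fbn2 lie on the same side of 0 as the first in the changes into suspension and on re-adhesion, while those of Fbln5 oppose each other in the comparison of re-adherent with adherent cells, 0.47 against -0.24.

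On re-adhesion 4 members were over 2-fold higher than in suspension (Fbln2, Fbln5, Mfap5 and Efemp2), where 15.6% of all genes were, and 3 were over 2-fold lower (Fbln7, Fbln1 and Fbn2), where 16.3% of all genes were. The median was 0.42, against 0.08 for all genes. Between re-adherent and adherent cells 1 member was over 2-fold lower (Fbn2), where 4.9% of all genes were, and 1 was over 2-fold higher (Eln), where 4.84% were. The median there was -0.12, against 0.06 for all genes. Of the 9 members that changed over 2-fold in suspension, 7 lay within 2-fold of the adherent level afterwards, or 77.8%, near the share of 80.6% among the 4913 genes that changed as much. The 3 comparisons share arrays in pairs, so they are not independent of each other.

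**Figure D3:**
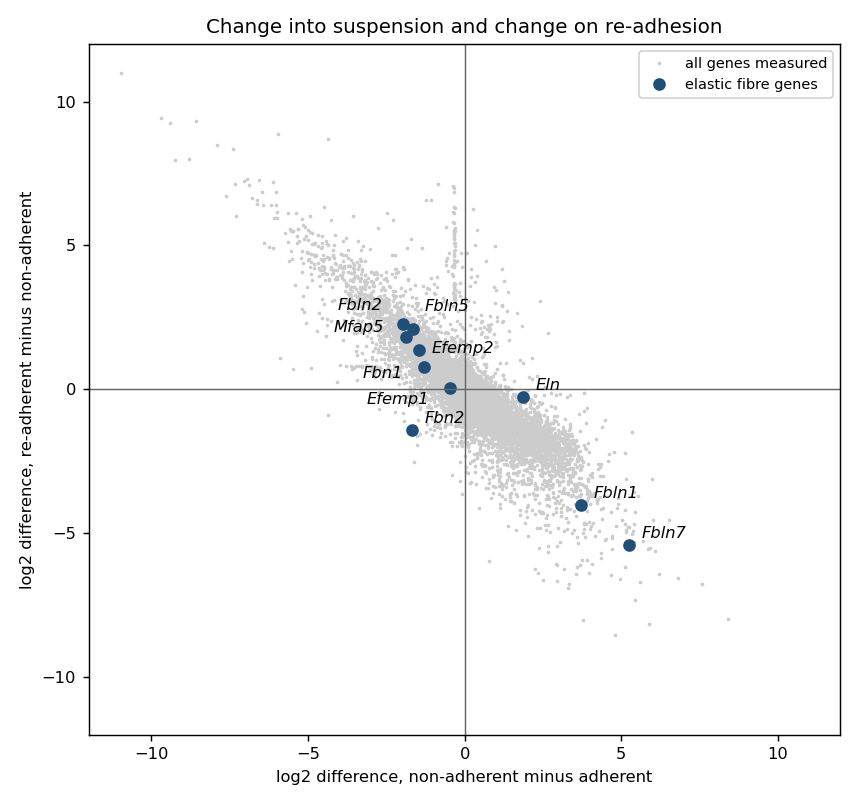
Log2 difference of re-adherent minus non-adherent cells (vertical) against that of non-adherent minus adherent cells (horizontal), with all 15393 genes in grey and the elastic fibre genes in blue; both axes use the non-adherent array. Fbln7 and Fbln1 lie at the lower right, 5 members at the upper left, Fbn2 at the lower left, where both steps are falls, and Eln and Efemp1 near the horizontal line.

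Genes whose steps were nearest to those of the extreme members were sought among genes well above background on all 3 arrays, by Euclidean distance over the 2 log2 differences. For Fbln7 they were Fosb, at a distance of 0.21, Ednrb, at 0.56, and Krtap11-1, at 0.60. Fosb, an AP-1 transcription factor gene, moved by 5.42 and -5.30, and Ednrb, which encodes the endothelin B receptor, by 4.70 and -5.54. Over the settings tried these were as small as 4.81 and -4.64 for Fosb and 3.95 and -4.30 for Ednrb. For Fbln2 the nearest were Pcbp4, Zfp365 and Gpx8, at 0.02, 0.05 and 0.05, where genes lie dense. These distances rest on 3 arrays.

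Genes of lysyl oxidases, chaperones and transporters, taken as 1 list, were mostly lower in suspension. Of the 9 genes, 7 were over 2-fold lower in suspension and 0 higher, with a median of -2.03. On re-adhesion 7 were over 2-fold higher, with a median of 2.12. Of all genes, 14.7% were over 2-fold lower and 17.2% higher in suspension, and 15.6% were over 2-fold higher on re-adhesion. The 7 that fell include Serpinh1, a collagen chaperone, and Slc2a10, a sugar transporter, with -1.98 and -1.58. Lox, the founding lysyl oxidase, read 10237 units in adherent cells, 482 in suspension and 8270 after re-adhesion. It moved by -4.51 and then by 4.46. Loxl4, a related oxidase, moved by -3.85 and 4.21, and over the settings tried by as little as -3.01 and 3.33. Loxl1, another lysyl oxidase, stayed within 2-fold, with -0.54 in suspension and 0.85 on re-adhesion. Atp7a, the copper transporter that loads lysyl oxidases, was the exception in direction, with 0.86 in suspension. Between the attached states all 9 lay within 2-fold.

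Genes of other microfibril-associated proteins and emilins had a median above 0 in suspension. Of 12 measured among 15, 5 were over 2-fold higher in suspension, 1 was lower and 6 stayed within 2-fold, with a median of 0.81. Of all genes, 17.2% were over 2-fold higher there and 14.7% lower. On re-adhesion 6 were over 2-fold lower, where 16.3% of all genes were, and 1 higher, where 15.6% were. Mmrn1, counted as higher in suspension and lower on re-adhesion, gave only 7.58, 22.7 and 4.59 units. It was not well above background in either attached state. Mmrn2, also counted in both, was well above background in every state and moved by 2.02 and -5.08. The gene against the rest was Npnt, which encodes the integrin ligand nephronectin; it gave 581, 12.8 and 219 units and was not well above background in suspension. Mfap4, which encodes a microfibril protein that binds elastin, gave 2942, 19120 and 2590 units and moved by 2.60 and -2.52. Mfap2, the close relative of Mfap5, gave 1760, 9805 and 169 units and moved by 2.38 and -5.49, ending at -3.11 against adherent cells, or -1.49 by its second probe. Over the settings tried the last differences were as small as -4.59 and -2.30. Mfap2 and Mfap5, which both bind fibrillin, thus changed in opposite directions in suspension.

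Latent TGF-beta binding proteins dock on fibrillin microfibrils. Of the 4 genes, Ltbp1 and Ltbp2 moved by -2.45 and -1.70 in suspension, and Ltbp3 and Ltbp4 by 0.59 and 1.48. Ltbp1 came back by 2.43, whereas Ltbp2 changed by -0.33 and ended at -2.03 against adherent cells. Ltbp4, whose protein acts with fibulin-5 in elastic fibre assembly, moved by -2.16 on re-adhesion.

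Of 8 measured Adamts-like and Adamts genes, 4 were over 2-fold lower in suspension, where 14.7% of all genes were, and 2 higher, where 17.2% were. Only 4 of the 8 were well above background on all 3 arrays. Over those 4 the median in suspension was 0.09 in place of -1.09. Adamtsl3 moved by -2.60 and 1.43, Adamtsl4 by -0.43 and 0.71, Adamts10 by 0.61 and -1.20, and Adamtsl2 by 2.30 and -2.61. Adamtsl3 read 148, 26.1 and 54.5 units, and over the settings tried its fall shrank to -1.06 and its rise to 0.56, within 2-fold. Those of Adamtsl2 shrank to 1.58 and -1.71.

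Among 16 measured genes of elastases and their inhibitors, 6 were over 2-fold higher in suspension and 2 lower, with a median of 0.80. The metalloproteinases Mmp2 and Mmp12, which can cleave elastin, rose by 2.49 and 2.42 and moved by -2.67 and -1.89 on re-adhesion. The lower genes were Timp3 and Timp1, inhibitors of metalloproteinases, with -3.14 and -2.75 in suspension and 3.25 and 2.10 afterwards, the latter 1.47 at its smallest over the settings. Among 13 measured integrin and elastin receptor subunits, 2 were over 2-fold lower and 6 higher. Of all genes, 14.7% were over 2-fold lower in suspension and 17.2% higher. Itgb3, counted as higher, moved by 1.24 by its brightest probe and by -0.05 by its second. Itga5 and Itgb1, which pair as the fibronectin receptor, moved by -1.55 and -1.35. Neu1, the sialidase of the elastin receptor complex, rose by 2.31 and Itga4 by 2.43.

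**Figure D4:**
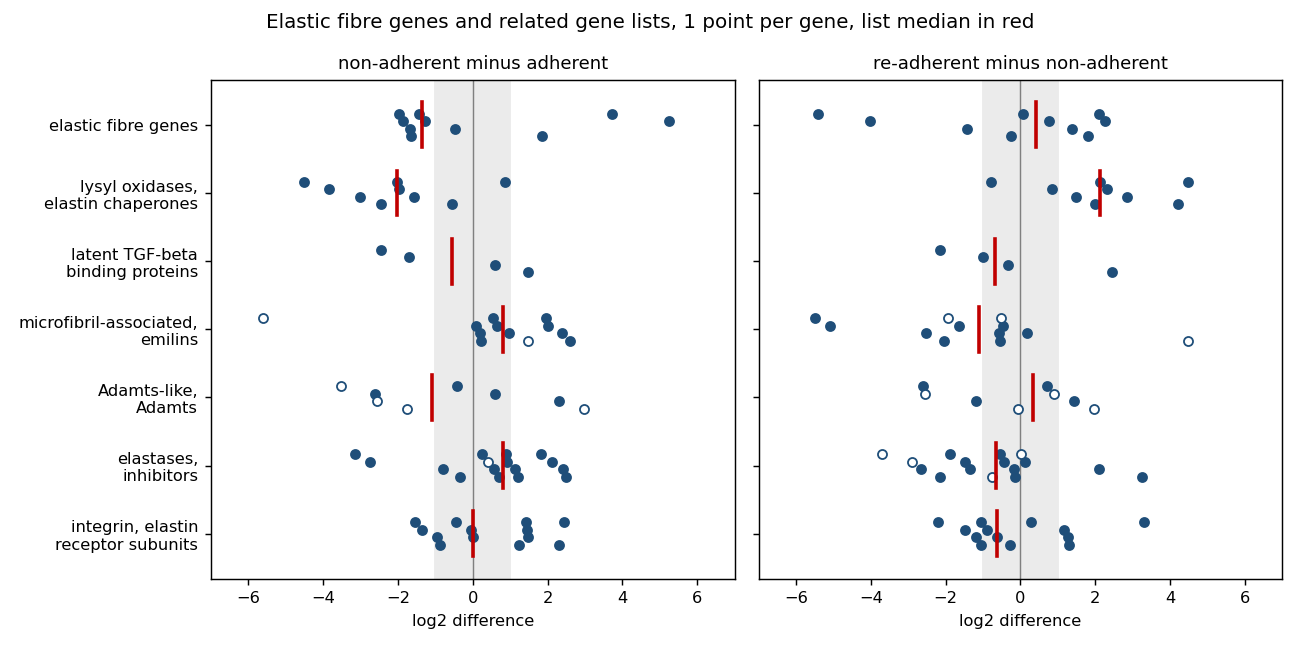
Log2 differences for the change into suspension (left) and on re-adhesion (right), 1 point per gene of the elastic fibre genes and of 6 related lists (open points, not well above background on 1 or both arrays of the pair; red bars, list medians; grey band, within 2-fold). The list shown as lysyl oxidases and elastin chaperones, which also holds a collagen chaperone and transporters, has medians of -2.03 and 2.12. The microfibril-associated and emilin genes have medians of 0.81 and -1.12.

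Markers of other cells moved with these changes. Leukocyte markers, of which 11 of 12 were measured and all 11 were well above background on every array, were over 2-fold higher in suspension for 10 genes. Of all genes, 17.2% were over 2-fold higher there. The summed normalised signal of the leukocyte markers, in multiples of the 75th percentile, was 197 in adherent cells, 1138 in suspension and 367 after re-adhesion. Ptprc, the gene for CD45, rose by 2.68, whereas Itgam, the only measured leukocyte marker lower in suspension, moved by -0.84 and then by 0.68. Endothelial markers were over 2-fold higher in suspension for 6 of 10, with summed signals of 24.4, 38.1 and 22.9. Kdr carried much of these sums, and the other 9 markers gave 9.87, 26.7 and 3.86. On re-adhesion 8 of 10 were over 2-fold lower, where 16.3% of all genes were. After it 6 of 10 ended over 2-fold below adherent cells, where 4.9% of all genes were, with a median of -1.77. Pecam1 moved by 1.21 and -1.93. All 10 were well above background in adherent and non-adherent cells, and 2 of 10, Tie1 and Emcn, were not in re-adherent cells. Epicardial and mesothelial markers, 7 of 7 measured, had summed signals of 4.14, 2.74 and 8.36. Smooth muscle and pericyte markers, 8 of 8, had 18.8, 15.1 and 14.1, with Kcnj8 and Abcc9 not above background in either attached state, Rgs5 not after re-adhesion and Myh11 not in suspension. Cardiomyocyte markers, 6 of 9 measured, had 1.24, 2.04 and 3.37, of which Tnnt2 alone gave 0.91, 1.37 and 3.04, and the other 5 gave 0.33, 0.67 and 0.33. Tnni3 and Actc1 were not above background after re-adhesion. Schwann cell markers, 4 of 5 measured, had 0.36, 0.55 and 0.55. The sums of leukocyte and endothelial markers thus peaked on the array where Fbln7, Fbln1 and Eln were highest. The part of these cells in the changes of the elastic fibre genes was not tested.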

How the data were processed

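Total RNA of 3 samples, 1 per group, was read on 1-colour Agilent SurePrint G3 mouse arrays. The authors deposited spot intensity values from Agilent Feature Extraction 10.10.1.1, background-subtracted and spatially detrended, with an error and flags (other columns) per spot; the deposited matrix held intensity values equal to the processed signal times 1 constant per array (1.52, 1.52 and 1.62), a normalization not given in the sources used here.

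Flagged spots were left out. From the log2 of the processed signal the 75th percentile of that array's non-control spots was subtracted, and spots of a probe were averaged. RefSeq accessions without version named 27235 of 55681 probes (GRCm38.p6). The array was designed on an earlier assembly, so gene coordinates are not given, apart from the RefSeq upstream windows of 4 members. A probe entered when well above background in 1 state or more, and the probe with the highest mean stood for its gene, which left 15393 genes, 4046 of them with several probes. Where a probe was not well above background, the fold is a bound against its own signal or, if higher, the dimmest probe of that array that was well above background.

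Over 2-fold is used as a description, without any test. Named genes were all members, all their probes, the 2 largest falls and 2 largest rises in suspension per related list among genes above background in both states, the 3 nearest genes of the member with the largest rise and of that with the largest fall, and Ptprc, Pecam1, Acta2 and Col1a1. Npnt, Mmrn1, Mmrn2, Loxl1, Serpinh1, Slc2a10 and Itgb3 were named after their values were seen. So were Pdgfra, Thy1, Tcf21, Lum, Dcn, Tagln, Itgam, Kdr, Tnnt2 and the markers not above background. The members and lists were chosen with earlier results of these data known. Alternatives were the authors' values, quantile, median, spike-in and no scaling, normexp with an offset of 50 (limma 3.58.1, on the median spot signal, with quantile normalization), a floor, other filters, flagged spots kept, the mean over probes, bright patches left out, and other fold thresholds. The scripts were tested on simulated data. The number of arrays, 3, limits the precision.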

Additional observations from a re-analysis of the deposited data

How the results depend on the processing

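No paired analysis was possible because there was 1 array for each state, and no replicate could be left out. At a threshold of 4-fold in place of 2-fold, 0 members were lower in suspension, 2 were higher on re-adhesion (Fbln2 and Fbln5) and 0 were higher in re-adherent than in adherent cells. The share of all genes past 4-fold was not counted, so these counts cannot be set against it. The other counts of members stayed within 1.5 times under every setting tried. Of 360 log2 differences of single members under 12 settings, 279 moved by less than the technical error, 81 by more, and 0 of those over 2-fold changed sign. The floor, the other filters, flagged spots kept and bright patches left out could not move any member. The mean over probes could move only members with 2 probes. The count of 279 therefore overstates how stable the values were. No scaling and spike-in scaling moved 20 each, the normexp correction 15, the authors' values 10, quantile normalization 9 and the mean over probes 7. Scaling also moved the median of all genes: from -0.07 to -0.37 in suspension with spike-in scaling, from 0.08 on re-adhesion to -0.28 without scaling, -0.20 with the authors' values and -0.05 with spike-in scaling, and from 0.06 to -0.37 between the attached states with spike-in scaling, -0.20 without scaling and -0.11 with the authors' values. Differences near 0 between the attached states (Fbln2, Efemp2, Mfap5) and of Efemp1 on re-adhesion changed sign with scaling; the cause was not tested. Low signals limit the second probes of Fbln5 and Fbn2 to bounds.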

Other observations

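The course of Fbn2 was shared by few genes. By a rule set after its values were seen, over 2-fold lower in suspension and over 2-fold lower again on re-adhesion, 13 of 15393 genes qualified by their measured values, 0.0845%. Of these, 4 were not well above background in suspension, so their second fall lies between readings at background. With readings not well above background raised to the lowest signal that was, 3 genes stayed over 2-fold lower on both steps: Fbn2, Meox1 and Gpc3. Meox1, which encodes a homeobox transcription factor, read 573 units in adherent cells, 230 in suspension and 61.0 after re-adhesion, moved by -1.42 and -1.55, and was the only one besides Fbn2 that was well above background on all 3 arrays. Gpc3, a cell surface glypican, read 137 and 51.8 units in the first 2 states and was not well above background after re-adhesion, a second fall of at least 2.08-fold. These are values of 3 arrays, and no relation between the genes was tested.

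By a rule also set after the values were seen, Eln was among 145 genes, 0.942%, that rose over 2-fold in suspension, changed within 2-fold on re-adhesion and stayed over 2-fold above the adherent level.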
